A study of Homo sapiens with 8 samples.

Results

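The 34 genes described here encode proteins of the early spliceosome and of branch site recognition. They were chosen by name, and a gene counted as present where the count table held single guide RNAs (sgRNAs, here called guides) against it. All 34 were present among 18913 targeted genes. They had 202 of the 111627 gene-targeting guides, 6 per gene and 4 for SNRPC. They fall into the Sm ring (7 genes), the U1 proteins (3), the U2 proteins (2), SF3A (3), SF3B (6), factors of the branch site and the polypyrimidine tract (7) and the minor spliceosome (6).

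Introns are removed by the spliceosome, which assembles from small nuclear ribonucleoprotein particles (snRNPs), each built on its own small nuclear RNA. The U1 snRNP pairs with the 5′ splice site, while SF1 and the U2AF heterodimer bind the branch site and the polypyrimidine tract before the U2 snRNP, with its SF3A and SF3B complexes, takes over the branch site. A ring of Sm proteins surrounds the RNA of most of these particles, and a minor spliceosome with its own U11 and U12 snRNPs removes a small class of introns. Most of these factors are needed for proliferation in cultured human cells, so their guides are commonly lost from a growing pool.

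The screen was performed in MB157R, a triple-negative breast cancer line made resistant to γ-secretase inhibitor (GSI) and stably expressing Cas9, which was infected with both parts, A and B, of the human GeCKOv2 library of knockout guides. T0 (2 libraries) is the pooled population at the end of puromycin selection, which took 4 days. The other libraries come from cultures of that population at day 14, of which 3 received the vehicle DMSO and 3 the GSI LY3039478 at 10 µM. All libraries thus share one cell line, Cas9, one transduced and selected pool and the same library. The p-value of a single guide measures the spread between aliquots and cultures of that pool.

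Library totals ranged from 12052218 to 18212884 counts, and the median guide had 66 to 112 counts. In the library GSI 1 a single guide, which targets another gene, held 38.8% of the counts, so counts were scaled by median-ratio size factors and not by totals. The T0 aliquots differed from each other: 5.05% of all gene-targeting guides had no count in T0 1 and 11.5% in T0 2, against 0.745% to 3.85% at day 14. A guide missing from both T0 aliquots but counted at day 14 has a high fold against T0. Among spliceosome guides missing from a single aliquot, folds of either sign occurred.

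Guides of the 34 genes were less abundant at day 14 than at T0 in both arms. Their median normalized count was 84.1 in T0 1 and 84.0 in T0 2. It was 43.3, 38.4 and 46.1 in the DMSO libraries and 51.9, 46.9 and 50.7 in the GSI libraries. Every day 14 library was below both T0 libraries, and every GSI library was above every DMSO library. The median over all gene-targeting guides stayed between 87.3 and 92.0 in the same 8 libraries. The median of the spliceosome guides was thus 93.8% ± 3.4 of that median at T0 (SD, n = 2), 47.6% ± 4.1 with DMSO (n = 3) and 55.2% ± 3.1 with GSI (n = 3). These values describe the set as a whole and carry no test.

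**Figure D1:**
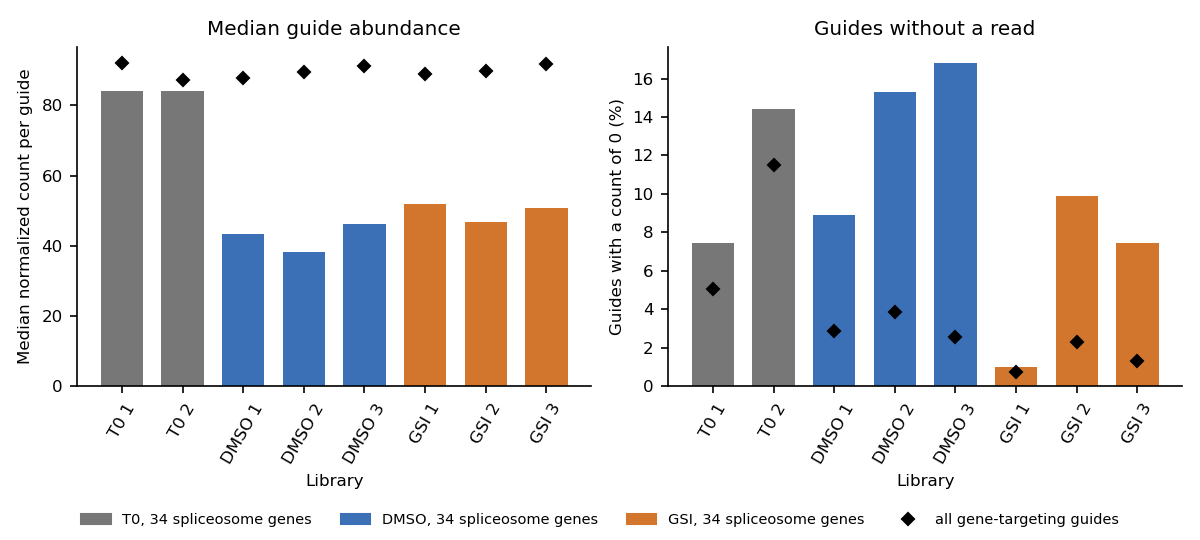
Median normalized count per guide (left) and percent of guides with a count of 0 (right) in each library, for the 202 guides of the 34 spliceosome genes (bars) and for all gene-targeting guides (diamonds). The bars stand at about 84 in both T0 libraries and between 38.4 and 51.9 at day 14, while the diamonds stay between 87.3 and 92.0.

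Among all guides of day 14, those of the spliceosome genes were more often without a read, with 1 library standing apart. Of the 202 guides, 15 had a count of 0 in T0 1 and 29 in T0 2, which is 7.43% and 14.4%. With DMSO 18, 31 and 34 guides were at 0 (8.91%, 15.3% and 16.8%), where 2.55% to 3.85% of all gene-targeting guides were. With GSI the numbers were 2, 20 and 15 (0.99%, 9.9% and 7.43%), against 0.745% to 2.3% of all. GSI 1, the library with the dominant guide, had the fewest empty guides among all guides too. With or without it the shares in the GSI and DMSO arms overlapped, GSI 2 (9.9%) lying above DMSO 1 (8.91%). In all 3 DMSO libraries 7 guides had no count, 2 of which were counted in both T0 libraries. In all 3 GSI libraries 1 guide, which targets U2AF1, had no count, and it had none in any of the 8 libraries.

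For each gene, the fold is the median log2 fold change over its guides with a mean count of at least 10 in the 8 libraries. The value after ± of a fold is the SD over those guides, not over libraries. Of the 202 guides 191 passed this filter, and each of the 34 genes kept at least 4. One-sided edgeR p-values of the guides were combined per gene by robust rank aggregation (RRA), whose p comes from random draws of guide ranks. The RRA p thus rests on the ranks of a gene's guides, and a single extreme guide can make it low. It does not measure the spread between libraries. It was adjusted over 18570 genes by the Benjamini-Hochberg method.

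DMSO versus T0 asks which knockouts were lost from untreated MB157R cells over 14 days. The median fold of the 34 genes was -0.80 on the log2 scale, and 31 genes were negative and 3 positive, while the median over all tested genes was 0.00. No spliceosome gene passed an adjusted p of 0.05 in either direction. Of all genes 0.0269% passed on the low side and 0% on the high side. At an unadjusted p under 0.05, 14 of the 34 genes (41.2%) were on the low side, against 6.27% of all genes, and 0 on the high side, against 5.29%. The 14 included SNRPA1, PHF5A and DDX39B, each with 3 guides negative and 3 positive, and SNRPC, with 2 negative and 2 positive. Of the 191 guides, 136 were negative (71.2%, against 50.1% of all guides). At an unadjusted p under 0.05, 26 guides (13.6%) were lower and 5 (2.62%) higher, against 3.58% and 4.21% of all guides. Without T0 replicate 1 the median fold was -0.20, beside 0.23 over all genes. In that setting 19 genes were negative and 14 positive, and 23 lay below the median of all genes.

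GSI versus T0 asks the same for cells cultured with the GSI, and shares the T0 libraries with the first comparison. The median fold was -0.36, with 26 genes negative and 8 positive, against -0.02 over all genes. No spliceosome gene, and 0% of all genes in either direction, passed the adjusted threshold. At an unadjusted p under 0.05, 11 of 34 genes (32.4%) were on the low side, against 5.85% of all genes, and 0 on the high side, against 5.38%. Those on the low side included SNRPB and U2AF2, although their median folds were positive, at 0.32 and 0.48. They also included SNRPG, SNRPA1 and PHF5A, each with 3 guides negative and 3 positive. Of the guides, 27 (14.1%) were lower and 7 (3.66%) higher, against 4.09% and 4.72% of all guides. Without T0 replicate 1 the sign of the median fold turned, to 0.25 beside 0.20 over all genes, with 15 genes negative and 19 positive. Without GSI replicate 3, 6 genes were on the low side at the unadjusted threshold, a count not set beside that of all genes.

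GSI versus DMSO compares the treated arm with the vehicle arm and does not use T0. The median fold was 0.28, with 24 genes positive and 10 negative, against -0.02 over all genes. No spliceosome gene passed the adjusted threshold, nor did any other gene (0% in both directions). At an unadjusted p under 0.05, 4 of 34 genes (11.8%) were on the high side, against 4.99% of all genes, and 0 on the low side, against 5.11%. Of the guides, 10 (5.24%) were higher and 2 (1.05%) lower, against 1.55% and 1.49% of all guides. Scaling by library totals, which carries the dominant guide of GSI 1, moved the median over all genes to -0.22 and the median of the 34 genes to 0.028, with 18 of them positive. Relative to that shifted median 26 of 34 were higher, and without GSI replicate 1, with the main scaling, 23 were positive with a median of 0.18. With a mean count of at least 50, which left 20 of the genes, the median was 0.10, and 0.14 relative to all genes.

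**Figure D2:**
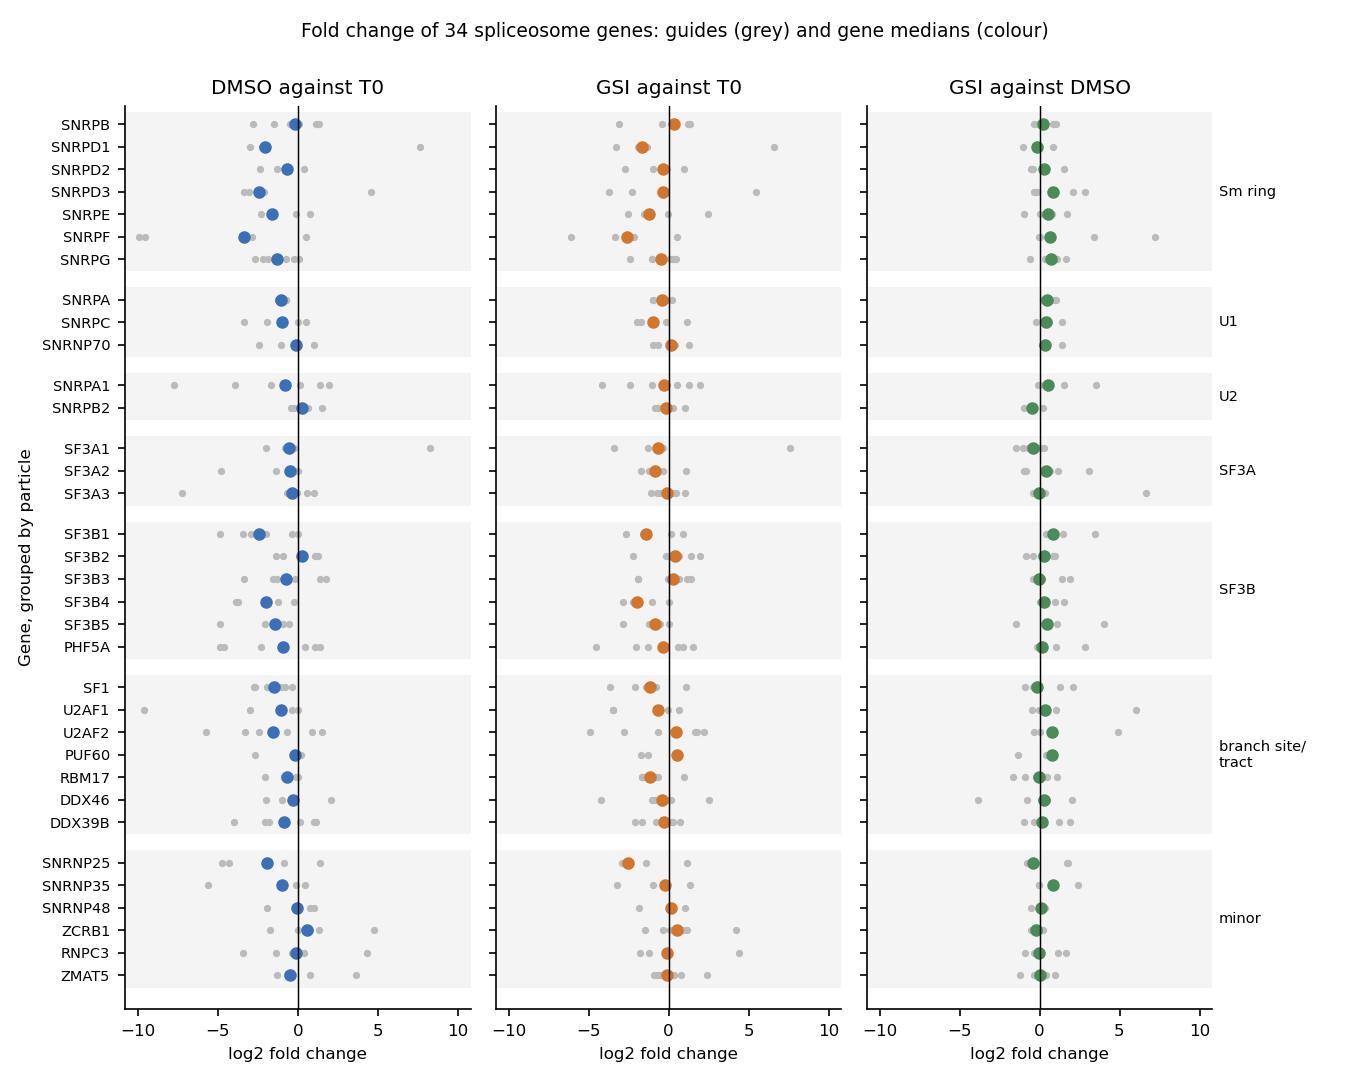
Log2 fold change of each of the 34 genes, grouped by particle, in DMSO against T0, GSI against T0 and GSI against DMSO. Grey points are single guides and coloured points the median over the guides of a gene; 31, 26 and 10 of the 34 gene medians lie below 0 in the 3 panels.

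The library parts A and B, which hold different guides, were compared. With DMSO against T0 the median was below 0 in both parts for 19 of 34 genes (55.9%), against 26.0% of all genes. It was above 0 in both for 1 gene (2.94%), against 26.1% of all genes. With GSI against T0 it was below 0 in both for 16 genes (47.1%), against 27.4% of all genes, and above 0 in both for 5 (14.7%), against 24.7%. With GSI against DMSO it was above 0 in both parts for 19 genes (55.9%), against 22.9% of all genes, and below 0 in both for 5 (14.7%), against 27.0%. The median guide of part A stood lower than that of part B in DMSO against T0, at -0.98 against -0.30. Over the guides of all tested genes these medians were -0.058 and 0.054.

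By mean normalized count over a gene's guides, all 6 day 14 libraries were below both T0 libraries for 16 of the 34 genes (47.1%), against 11.8% of all genes. They were above both for 0 genes, against 7.16% of all genes. The 16 were 5 Sm proteins (SNRPD1, SNRPD2, SNRPD3, SNRPF and SNRPG), SNRPC of U1, SNRPA1 of U2, SF3A1, SF3A2, SF3B4, PHF5A, SF1, U2AF2, RBM17, SNRNP25 and SNRNP35.

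The Sm ring had the lowest median fold of the 7 groups with DMSO, -1.62, and all 7 of its genes were negative. With GSI the median was -0.45 with 6 of 7 negative, and GSI against DMSO gave 0.52 with 6 of 7 positive. SNRPF encodes the Sm protein F. With median-ratio size factors and no library left out, it had the lowest fold of all 34 genes in both arms. Its mean normalized count per guide was 103 and 64.0 at T0, 20.2, 38.3 and 21.6 with DMSO, and 35.6, 38.6 and 21.7 with GSI. The day 14 values lay below both T0 values, and the arms overlapped. The fold was -3.36 ± 4.56 with DMSO (SD over 5 guides; RRA adjusted p = 0.373) and -2.61 ± 2.39 with GSI, and 4 of 5 guides were negative in each. The SNRPF fold with DMSO was 0.0 without T0 replicate 1 and -8.86 without DMSO replicate 2, so its place in the set with DMSO rests on single libraries. GSI against DMSO gave SNRPF 0.68 ± 3.11 with 4 of 5 guides positive (RRA permutation p = 0.0300, adjusted p = 0.968), and from 0.0 without GSI replicate 1 to 3.34 without DMSO replicate 2. Of its guides, 2 were at 0 in every DMSO library, so their fitted folds depend on the prior count of the fit and are no bound.

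SNRPD1, the Sm protein D1, counted 56.7 and 119 at T0, 11.8, 39.1 and 23.9 with DMSO and 16.5, 27.6 and 36.8 with GSI. Both arms were below T0 without overlap, with folds of -2.06 ± 5.02 and -1.63 ± 4.46 over 4 guides, of which 3 were negative in each arm. The remaining guide had no count in either T0 library, and the GSI fold was -0.93 without T0 replicate 2. SNRPG, the Sm protein G, counted 218 and 142 at T0, 56.8, 57.9 and 91.3 with DMSO and 93.6, 135 and 122 with GSI, so that the GSI values all lay above the DMSO values and below T0. GSI against DMSO gave SNRPG a fold of 0.71 ± 0.77 with 5 of 6 guides positive (RRA permutation p = 0.0398, adjusted p = 0.968). Its fold against T0 was -1.30 with DMSO and -0.45 with GSI, the latter turning to 0.58 without T0 replicate 1. Without DMSO replicate 3 its fold in GSI against DMSO was 1.24. Of the other Sm genes, SNRPD3 stood at -2.44 with DMSO and -0.36 with GSI, SNRPE at -1.62 and -1.24, and SNRPD2 at -0.65 and -0.35. SNRPB, which encodes the shared B and B′ proteins, was nearest to 0 with DMSO, at -0.20, and was 0.32 with GSI.

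**Figure D3:**
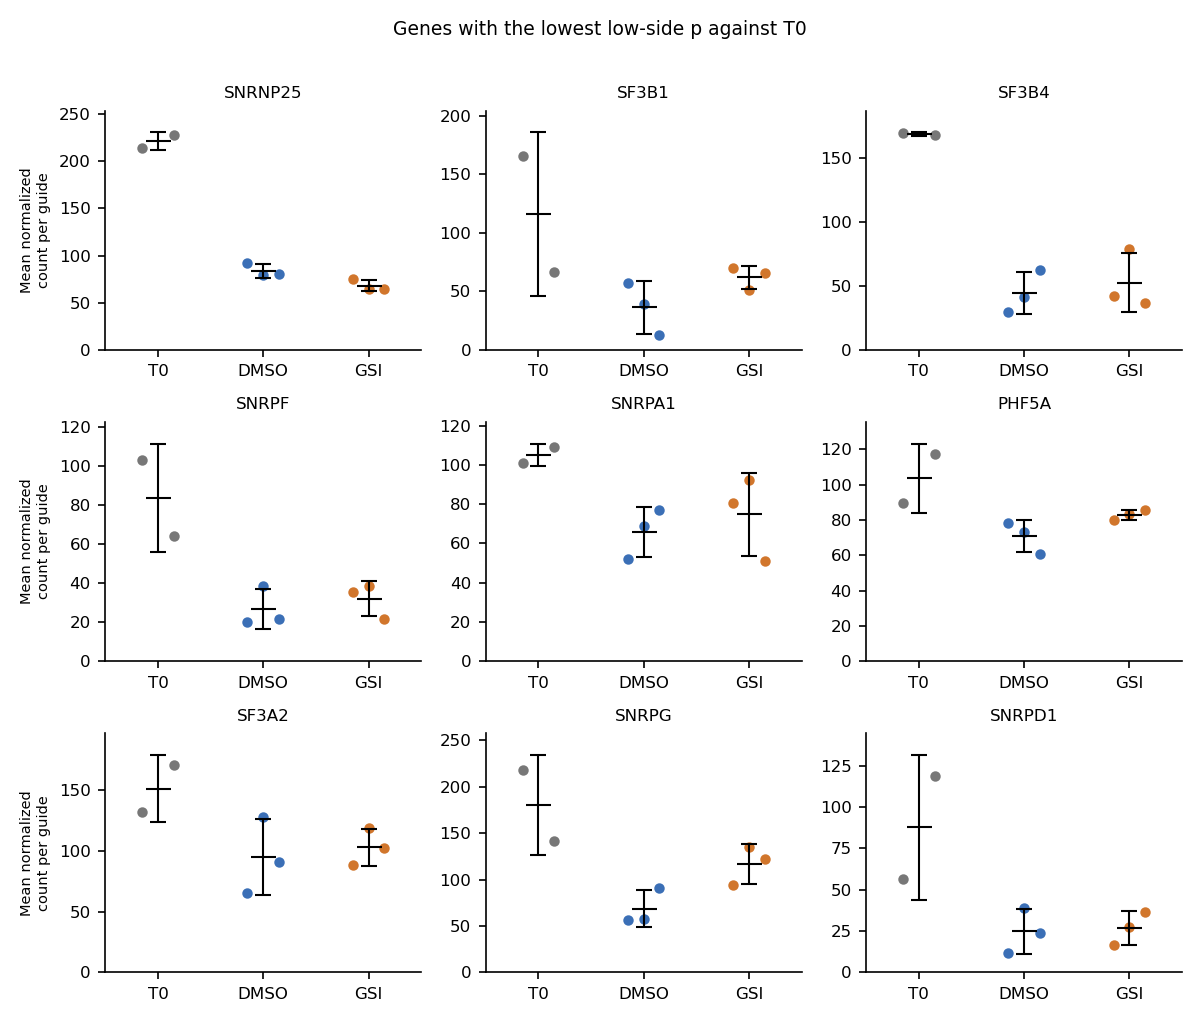
Mean normalized count per guide of the 9 genes with the lowest low-side p against T0 in either arm, in each library (points), with the mean and SD of each group (bars); each panel has its own scale from 0. The day 14 points lie below both T0 points for all of them except SF3B1, where DMSO 1 to 3 reach from 12.7 to 57.0 and GSI from 51.0 to 69.8 beside T0 values of 166 and 66.4.

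U1 proteins recognise the 5′ splice site together with the U1 RNA. SNRPA was the most even gene of the set, with all 6 guides negative with DMSO at -1.02 ± 0.24, and -0.39 ± 0.49 with GSI. RRA, which weighs the strongest guides, gave it a low-side p of 0.459 with DMSO. SNRPC (U1-C) stood at -0.96 in both arms over 4 guides, and SNRNP70 (U1-70K) at -0.08 and 0.16. In GSI against DMSO all 6 guides of SNRPA and all 6 of SNRNP70 were positive, with folds of 0.47 and 0.33, and SNRPC was at 0.41.

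The U2-specific pair SNRPA1 and SNRPB2, which bind a stem-loop of the U2 RNA together, differed in position. SNRPA1 counted 101 and 109 at T0, 52.1, 68.6 and 76.9 with DMSO and 80.8, 92.3 and 51.2 with GSI. All 6 day 14 libraries were below T0 and the arms overlapped. Its fold was -0.78 ± 3.67 with DMSO (adjusted p = 0.403) and -0.27 ± 2.35 with GSI (adjusted p = 0.418), with 3 guides negative and 3 positive in each. Without T0 replicate 1 the GSI fold was -0.05, and requiring a mean of at least 50 counts made it 0.11 and the DMSO fold -0.15. SNRPB2 counted 110 and 141 at T0, 203, 186 and 137 with DMSO and 123, 143 and 140 with GSI. Its groups overlapped, with folds of 0.27 ± 0.71 and -0.16 ± 0.68, and it had the lowest low-side p of the 34 genes in GSI against DMSO (fold -0.44 ± 0.37, 5 of 6 guides negative, RRA permutation p = 0.0922, adjusted p = 0.978). That last fold was -0.15 without DMSO replicate 2.

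SF3A joins the U2 snRNP with SF3B to form its mature 17S form. Its 3 genes were negative in both arms, with medians of -0.48 and -0.63, and GSI against DMSO had a median of -0.05. SF3A2 counted 132 and 171 at T0, 65.6, 128 and 91.3 with DMSO and 88.2, 119 and 102 with GSI, below T0 in every day 14 library. Its fold was -0.48 ± 1.84 with DMSO and -0.82 ± 0.96 with GSI (adjusted p = 0.686), and 5 of 6 guides were negative in each. The GSI fold was -0.41 without T0 replicate 2. In GSI against DMSO it had 0.42 ± 1.49 (RRA permutation p = 0.0367, adjusted p = 0.968), where the SF3A2 groups overlapped. SF3A1 counted 146 and 144 at T0, 71.6, 105 and 109 with DMSO and 83.5, 106 and 55.9 with GSI. Its fold was -0.53 with DMSO, -0.63 with GSI and -0.39 ± 0.68 in GSI against DMSO, with overlapping arms. The latter ran from -0.62 without GSI replicate 1 to -0.15 without GSI replicate 3. SF3A3 lay close to 0 in every comparison, at -0.34, -0.12 and -0.05.

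SF3B holds the branch site adenosine. At the unadjusted threshold 4 of its 6 genes were on the low side with DMSO and 3 with GSI, against 6.27% and 5.85% of all genes. The median fold was -1.19 with DMSO, -0.59 with GSI and 0.27 in GSI against DMSO. SF3B1, the large scaffold subunit and target of splicing modulators (chromosome 2, 197388515 to 197435079 on the minus strand in GENCODE v44, GRCh38), had the second lowest low-side p of the set with DMSO. Its mean normalized count was 166 and 66.4 at T0, 57.0, 39.0 and 12.7 with DMSO and 69.8, 51.0 and 65.4 with GSI. The DMSO values lay below both T0 values, while GSI 1 lay above T0 2. The fold was -2.45 ± 1.87 with DMSO (adjusted p = 0.258) and -1.40 ± 1.31 with GSI, and the DMSO fold was -1.50 without T0 replicate 1. In GSI against DMSO all 6 SF3B1 guides were positive, with a fold of 0.85 ± 1.15 (RRA permutation p = 0.0503).

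SF3B4, an RNA-binding subunit that contacts the RNA upstream of the branch site, counted 170 and 168 at T0, 29.8, 41.0 and 62.7 with DMSO and 42.0, 79.2 and 36.3 with GSI. Both arms were far below T0 and overlapped each other. Its fold was -1.98 ± 1.57 with DMSO (adjusted p = 0.291), where all 5 guides were negative, and -1.96 ± 1.12 with GSI (adjusted p = 0.352), which was -0.96 without T0 replicate 2. PHF5A, a small subunit that forms part of the branch site pocket, counted 89.8 and 118 at T0, 78.4, 73.1 and 60.8 with DMSO and 80.1, 83.3 and 85.5 with GSI. Its guides divided by library part, with 3 guides of part A negative and 3 of part B positive in both arms. Its fold of -0.94 ± 2.84 with DMSO (adjusted p = 0.529) turned to 0.89 without T0 replicate 1. SF3B2 counted 130 and 131 at T0, 136, 83.1 and 175 with DMSO and 159, 188 and 152 with GSI. It was one of the highest genes of the set, at 0.25 ± 1.05 and 0.38 ± 1.46, but its DMSO values lay on both sides of T0, and its DMSO fold was -0.13 without DMSO replicate 3, -0.07 without T0 replicate 1 and -0.01 with size factors from non-targeting guides. SF3B5 had all 6 guides negative with DMSO at -1.44 and stood at -0.85 with GSI, and SF3B3 was at -0.72 and 0.31.

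The factors that read the branch site and the polypyrimidine tract were all negative with DMSO, with a median of -0.83, and 5 of 7 were negative with GSI, with a median of -0.42. SF1, the branch point binding protein, had all 6 guides negative with DMSO at -1.49 and stood at -1.17 with GSI. U2AF2, the large subunit that binds the polypyrimidine tract (chromosome 19, 55654146 to 55674716 on the plus strand), had the lowest high-side p of the set in GSI against DMSO. It counted 146 and 89.8 at T0, 56.8, 62.3 and 37.8 with DMSO and 69.1, 74.4 and 59.9 with GSI. All day 14 values lay below T0, and the arms overlapped by this measure. GSI against DMSO gave 0.77 ± 1.91 with 5 of 6 guides positive (RRA permutation p = 0.00716, adjusted p = 0.821), and 0.33 without GSI replicate 3. A single guide stood far above the rest there, with a fold of 4.94, and the next highest U2AF2 guide was at 0.88. The raw counts of that single guide were 1, 1 and 2 with DMSO, 46, 53 and 35 with GSI, and 36 and 0 at T0. RRA without that guide was not run. Against T0 the U2AF2 fold was -1.54 with DMSO and 0.48 ± 2.88 with GSI. The GSI fold was 2.27 without T0 replicate 1 and -0.0019 without T0 replicate 2. In that aliquot 3 U2AF2 guides had a count of 0 or 1.

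U2AF1, which binds the AG of the 3′ splice site, stood at -1.02 and -0.68, and RBM17 (SPF45), a U2-associated protein with a U2AF homology motif, at -0.64 and -1.17. PUF60, a relative of U2AF2, counted 63.9 and 42.7 at T0, 70.1, 39.5 and 36.2 with DMSO and 57.9, 63.1 and 61.6 with GSI. Its groups overlapped, and its fold with GSI of 0.50 ± 1.14, the highest of the 34, was -0.41 without T0 replicate 2. The helicase DDX46 (PRP5) counted 57.5 and 68.0 at T0, 47.1, 37.0 and 57.5 with DMSO and 46.7, 42.5 and 85.6 with GSI. Its fold in GSI against DMSO was 0.27 ± 1.98, and -0.05 without GSI replicate 3. The helicase DDX39B (UAP56) counted 123 and 145 at T0, 167, 96.2 and 117 with DMSO and 138, 112 and 99.7 with GSI, with overlap of all groups. Its fold in GSI against DMSO was 0.14 ± 1.04, but -0.14 without GSI replicate 1 and -0.16 with scaling by library totals. Both helicases were among the 4 lowest low-side p-values of the set in GSI against DMSO (RRA permutation p = 0.134 and 0.188) although their median folds were positive, and 2 of 6 guides were negative for each.

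The minor spliceosome genes had median folds of -0.31 with DMSO, -0.10 with GSI and 0.01 in GSI against DMSO. SNRNP25, a protein of the U11/U12 di-snRNP (chromosome 16, 53828 to 57669 on the plus strand), had the lowest low-side p of the 34 genes in both arms, and ranked 3 among all genes with GSI. Its mean normalized count was 215 and 228 at T0, 92.1, 78.9 and 80.5 with DMSO, and 75.0, 64.5 and 64.7 with GSI. Both arms lay far below T0, and every GSI value lay below every DMSO value. The fold was -1.90 ± 2.25 with DMSO (adjusted p = 0.168) and -2.55 ± 1.54 with GSI (adjusted p = 0.108), with 5 of 6 guides negative in each. Without T0 replicate 2 the GSI fold was -1.31. Over 14 alternatives the adjusted p of the GSI fold ran from 0.0371, with DESeq2 guide statistics, to 0.479. In GSI against DMSO SNRNP25 stood at -0.39 ± 1.18.

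SNRNP35, the U11 counterpart of U1-70K, was at -0.98 with DMSO and -0.25 with GSI. ZCRB1, another U11/U12 protein, lay at the other end of the set. It counted 146 and 93.5 at T0, 168, 183 and 141 with DMSO and 137, 128 and 150 with GSI. Its fold was 0.60 ± 2.15 with DMSO and 0.50 ± 1.96 with GSI, the groups overlapped, and neither high-side p passed (RRA adjusted p = 0.962 and 0.986). Without T0 replicate 2 the ZCRB1 folds were 1.55 and 1.47, and requiring a mean of at least 50 counts made the GSI fold 0.099. SNRNP48, RNPC3 and ZMAT5, which are also U11/U12 proteins, lay between -0.48 and 0.18 in both arms.

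The arms were then compared by the level of each gene in each library, for which each guide's normalized count, with a pseudocount of 1, was set against its T0 mean on the log2 scale and the median guide was taken. On this scale the median over the 34 genes was -0.47, -0.77 and -0.39 in the DMSO libraries and 0.12, -0.29 and -0.21 in the GSI libraries. The means were -0.54 ± 0.20 and -0.13 ± 0.22 (SD, n = 3 each), while all genes stood at 0.25 in both arms. All 3 GSI levels lay above all 3 DMSO levels for 5 of the 34 genes, SNRPD3, SF3B1, SF3B5, U2AF2 and SNRNP35, which compares with 5.19% of all genes. They lay below for 0 genes, against 4.24% of all genes. By the mean normalized count in place of the median level, 6 genes lay above (SNRPD3, SNRPG, SNRNP70, SF3B5, PHF5A and SNRNP35), against 3.7% of all genes, and SNRNP25 lay below, against 5.85% of all genes. SNRPD3, SF3B5 and SNRNP35 were above by both measures. With 3 libraries against 3, an exact permutation test of a single gene cannot go below p = 0.1.

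**Figure D4:**
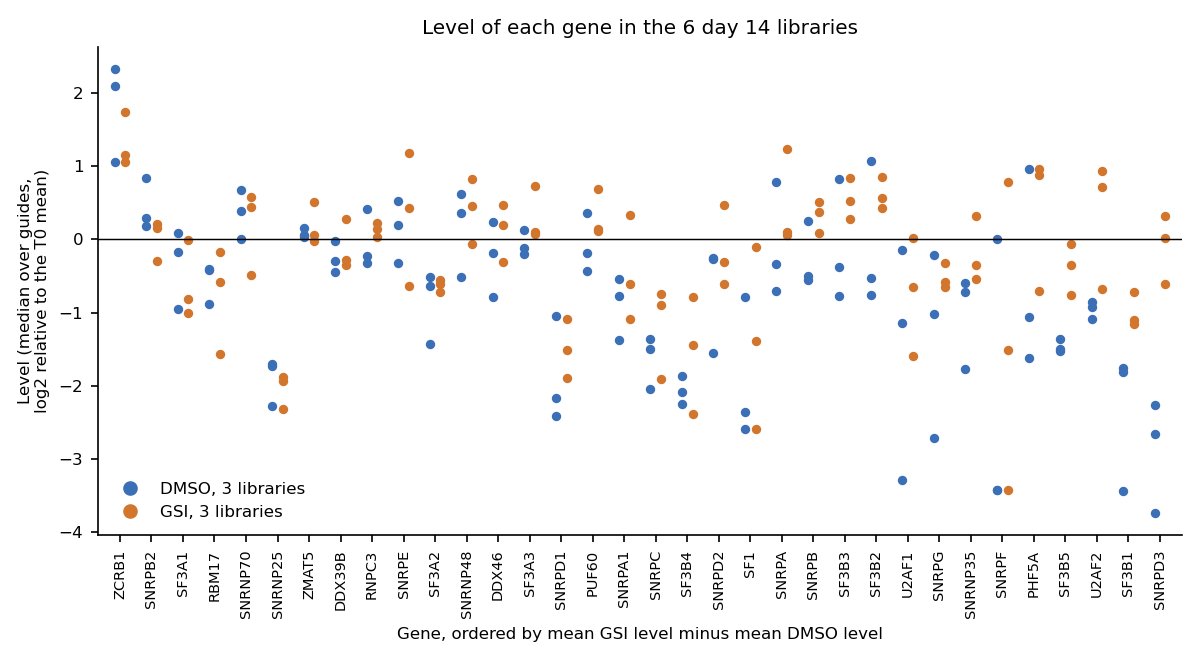
Level of each of the 34 genes in the 3 DMSO and the 3 GSI libraries, on the log2 scale relative to T0 (median guide), ordered by the difference between the arm means. The 3 GSI points lie above the 3 DMSO points for SNRPD3, SF3B1, U2AF2, SF3B5 and SNRNP35, and overlap for the other 29 genes.

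Other splicing genes were set beside these. The tri-snRNP, PRP19 complex and helicase genes (45 tested) had median folds of -0.46 with DMSO, -0.20 with GSI and 0.13 in GSI against DMSO, with 10, 9 and 0 genes on the low side and 0, 2 and 5 on the high side at an unadjusted p under 0.05. The snRNP assembly and import factors (16 tested) stood at -0.28, -0.53 and 0.15, with 7, 6 and 0 on the low side and 1 on the high side each time. SR proteins and hnRNPs (23 tested) stood at -0.32, -0.39 and -0.01, with 2, 3 and 0 on the low side and 2, 1 and 0 on the high side. The other early and auxiliary factors (21 tested) stood at -0.22, -0.10 and -0.03, with 5, 1 and 2 on the low side and 2, 0 and 2 on the high side. The cytosolic ribosome (79 genes), the usual yardstick of genes needed for growth, stood at -1.04, -0.72 and 0.18. Of these genes 37 (46.8%), 36 (45.6%) and 0 were on the low side and 2, 4 and 9 (11.4%) on the high side. In GSI against DMSO 55 of the 79 were positive. The 366 olfactory receptor genes stood at 0.12, 0.09 and -0.01, with 7, 9 and 17 on the low side and 34, 24 and 20 on the high side. Of all genes 6.27%, 5.85% and 5.11% were on the low side and 5.29%, 5.38% and 4.99% on the high side. These differences between lists were not tested.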

How the data were processed

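Per the labels, the authors removed adapters with bcl2fastq 2.19, ran FastQC 0.11.5 and counted reads per guide with MAGeCK 0.5.9.2. The deposited table of raw counts for 119461 guides in 8 libraries was used, and the deposited normalized table, a constant multiple of it in each library, was not. Guide sequences and cut sites were not analysed here, and gene positions are those of GENCODE v44 (GRCh38).

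Guides averaging at least 10 counts across all 8 libraries (116852) were tested in R 4.3.3 with edgeR 4.0.16 (glmQLFit and glmQLFTest), with median-ratio size factors over all libraries and only the groups compared in each fit. RRA (alpha 0.25, 1000000 draws per guide number) took genes with at least 4 tested guides, leaving out non-targeting and microRNA guides, and the Benjamini-Hochberg method adjusted over 18570 genes. With this number of draws p has a floor of 1e-06. The scripts were tested on simulated data with changed genes.

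The members and gene lists were chosen with earlier results of these data known. Library values are given for the 6 members with the lowest low-side p in each arm against T0, the 4 on each side in GSI against DMSO, and the 3 with the highest fold in each arm. Other genes and single guides were named after their values were seen, each member with its fold. Alternatives were other size factors (non-targeting guides, library totals), filters (none, or a mean of at least 50), an RRA alpha of 0.1, DESeq2 1.42.0 statistics, a joint fit, a replicate block, a pseudocount of 5 and leaving out each library. The mean normalized count as a gene's level was added after seeing the data.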

Additional observations from a re-analysis of the deposited data

How the results depend on the processing

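No spliceosome gene passed an adjusted p of 0.05 in any comparison under any alternative run, except 1 gene, SNRNP25, lower in GSI against T0 with DESeq2 statistics (adjusted p = 0.0371). With a mean count of at least 50, 20 of the 34 genes were left: 6 were on the low side at an unadjusted p under 0.05 in each arm against T0, 1 was on the high side in GSI against DMSO, and the median folds of DMSO against T0 and GSI against DMSO were -0.59 and 0.10. With size factors from non-targeting guides that median was -1.06 and the median over all genes -0.25. Scaling by library totals moved the median over all genes by over 0.1 in GSI against T0 (to -0.16) and in GSI against DMSO (to -0.22). In GSI against DMSO a joint fit of all 8 libraries gave 1 gene on the low side and 7 on the high side, and no filter gave 7 on the high side. With the mean normalized count as level, 1 gene lay below DMSO without overlap instead of 0. The counts at the unadjusted threshold in this section are not set beside the share of all genes called in the same setting. They therefore cannot tell a change in these genes from a change in all genes.

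Leaving out 1 library at a time, genes on the low side numbered 8 to 14 in DMSO against T0, 6 to 12 in GSI against T0 and 0 to 1 in GSI against DMSO, where 3 to 7 were on the high side. The median fold ranged from -0.91 to -0.20, from -0.51 to 0.25 and from 0.18 to 0.37. Its reversal, to 0.25 in GSI against T0, came without T0 replicate 1, where the remaining T0 library was assumed to vary like the other groups; relative to all genes it ranged from -0.49 to 0.049. The cause was not tested. In DMSO against T0, SF3B2 ranged from -0.13 (without DMSO replicate 3) to 0.82, with -0.072 without T0 replicate 1, and stood at -0.011 with non-targeting size factors. PHF5A ranged from -2.08 to 0.89 (without T0 replicate 1). In GSI against T0, SNRPG ranged from -0.86 to 0.58 (without T0 replicate 1), PUF60 from -0.41 (without T0 replicate 2) to 0.45 and U2AF2 from -0.0019 (without T0 replicate 2) to 2.27, and SNRPA1 turned to 0.11 with a mean count of at least 50. In GSI against DMSO, DDX39B ranged from -0.14 (without GSI replicate 1) to 0.29 and DDX46 from -0.050 (without GSI replicate 3) to 0.52, and DDX39B was -0.16 with library totals.

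DMSO and GSI libraries share replicate numbers, but the labels do not say that a number marks a shared culture, and the deviations of same-numbered libraries correlated at 0.28, 0.0644 and 0.121 (other pairs -0.161 to 0.0455), so the numbers were not taken as pairs although every library correlated best with its own number. With the replicate block 7 genes were on the high side in GSI against DMSO and SNRPF turned from 0.68 to -0.055. The depth of 66 to 112 counts per median guide and the 2 T0 libraries limit what a single gene can show.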

Other observations

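GSI 1 held reads of guides that its companion libraries lacked. Of the 202 spliceosome guides, 10 had no count in both GSI 2 and GSI 3, and 9 of these were counted in GSI 1, with a median of 7 counts and a highest of 21. Over all gene-targeting guides the share was 68.7% of 668, with a median of 5 counts. The same share in DMSO 1 was 12 of 19 spliceosome guides (63.2%), against 48.8% over all gene-targeting guides. It was 36.4% of 11 in each of DMSO 2 and DMSO 3, against 38.7% and 49.0% over all. In GSI 2 it was 0 of 1 spliceosome guide and in GSI 3 1 of 2, against 32.4% and 49.3% over all. The part of these counts in the folds of GSI against DMSO was not tested beyond leaving out GSI 1.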
